A study of Mus musculus with 6 samples.

Results

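The 10 genes described here were Trem2, Tyrobp, Gpnmb, Cd63, Spp1, Lgals3, Apoe, Fabp5, Gdf15 and Gdf3. They are genes of lipid-associated macrophages together with the growth factor genes Gdf15 and Gdf3. The genes were taken by name from a given list, chosen with earlier results of these data known. All 10 were found among the 18089 genes of the series. They were measured by RNA sequencing of ischemic gastrocnemius, a calf muscle, in 3 samples of Gpr174-/Y mice and 3 of WT littermate controls. All mice were male C57BL/6 animals of 8 to 10 weeks, and all muscles were taken 7 days after hindlimb ischemia (HLI), so neither uninjured muscle nor another time point enters a comparison. Gpr174-/Y mice lack GPR174, a G protein-coupled receptor gene on the X chromosome, in every cell, so a difference does not name the cell in which the receptor is missing. The comparison asks which genes differ in level between injured muscles with and without GPR174.

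After muscle injury, macrophages take up debris of dead fibres and the lipid it carries, and many of them turn on a shared set of genes. TREM2 is a surface receptor for lipids, apolipoproteins and cell debris, and it signals through the adaptor TYROBP, also called DAP12. Among the other genes of this set, GPNMB and CD63 are membrane proteins of lysosomes, osteopontin (Spp1) and galectin-3 (Lgals3) are secreted proteins that bind integrins or sugars, and apolipoprotein E and FABP5 carry lipids outside and inside the cell. GDF15 and GDF3 are ligands of the TGF-beta superfamily that macrophages can make during muscle repair.

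The libraries held 18417107 to 18695036 estimated counts in WT and 19173051 to 19394505 in Gpr174-/Y muscles, and 3 counts, taken as the smallest detectable number, correspond to 0.140 to 0.187 CPM (counts scaled to a common library size), which covers counting error only. Gpr174 itself was near the limit of detection, at 8, 2 and 5 counts in the 3 WT libraries and at 1, 0 and 0 in the Gpr174-/Y libraries, and was too low to be kept for the test. Replicate 2 lay between replicates 1 and 3 for 71.7% of the tested genes in WT and for 64.1% in Gpr174-/Y muscles, against the 33.3% that independent libraries would give on average. The 3 Gpr174-/Y libraries differed less from each other than the WT libraries did, with a chi-square per degree of freedom of 1.85 to 9.41 between pairs against 12.2 to 71.3. Neither labels nor methods state a batch. The methods give 3 samples in each group, but the labels do not say that the libraries are from separate mice, so p-values measure only the spread between these samples and may be too small. The 20 mature muscle fibre genes, which mark the labelled tissue, summed to 145280 to 211480 CPM in WT and 65167 to 72654 CPM in Gpr174-/Y muscles, and 19 of the 20 fell. The 16 macrophage identity genes summed to 1738 to 2680 CPM in WT and 4131 to 4361 CPM in Gpr174-/Y muscles. The macrophage identity sum moved with the genes described here and the fibre sum in the opposite direction, and their part in each result was not tested. In such bulk samples, more cells of a type and more RNA per cell cannot be told apart.

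All 10 genes were higher in each Gpr174-/Y library than in each WT library, and 9 of them rose significantly (edgeR's quasi-likelihood test with Benjamini-Hochberg adjustment, adjusted p under 0.05). Across all 14395 genes tested, 27.0% were called higher and 27.6% lower, and 33.1% had each Gpr174-/Y library above each WT library. None of the 10 genes fell (0 at an unadjusted p under 0.05, and 0 by DESeq2). Trem2, Tyrobp, Gpnmb, Spp1, Lgals3 and Gdf3 passed both an adjusted p of 0.05 and a log2 fold change of 1, which 3.45% of all genes passed in that direction. The median log2 fold change was 1.05 over the 10 genes and 0.0037 over all genes tested. Together the 10 genes took 0.189% to 0.313% of all counts in WT libraries and 0.525% to 0.530% in Gpr174-/Y libraries. When only replicates 1 and 3 of each group were used, no gene of the transcriptome passed the threshold (0 genes, lowest adjusted p = 0.0542, with 5026 genes at an unadjusted p under 0.05), and 8 of the 10 genes had an unadjusted p under 0.05. With a score of the mature fibre genes as a covariate, none of the 10 genes passed and the log2 fold change turned negative for 9 of them, but the fibre sums did not overlap between genotypes, so fibre content and genotype cannot be told apart. With total-count scaling all 10 genes rose, while the calls over the transcriptome moved from 3891 higher against 3972 lower to 7303 against 2010. The median log2 fold change of the transcriptome then lay at 0.28.

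**Figure D1:**
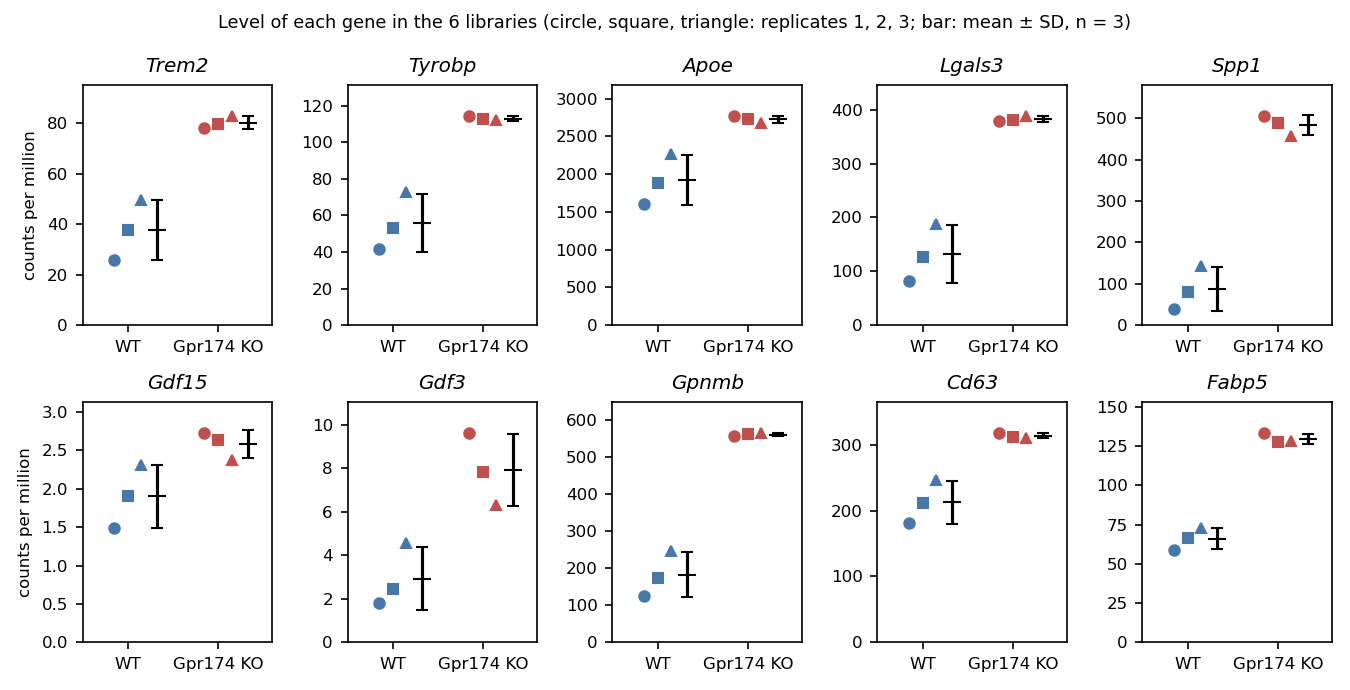
Level in CPM of each of the 10 genes (y axis, linear and starting at 0) in the 3 WT and 3 Gpr174-/Y (Gpr174 KO) libraries, with the mean ± SD of each group (n = 3). In all 10 panels the 3 Gpr174-/Y points lie above the 3 WT points, and WT replicate 1 is the lowest and WT replicate 3 the highest of the WT points.

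Each of the 10 genes was lowest in WT replicate 1 and highest in WT replicate 3, an order shown by 35.9% of all genes tested. Within WT, the highest library exceeded the lowest by 1.23-fold (Fabp5) to 3.71-fold (Spp1). Within Gpr174-/Y muscles, the highest library exceeded the lowest by 1.02-fold (Gpnmb, Tyrobp, Cd63) to 1.52-fold (Gdf3), and this ratio was smaller than in WT for all 10 genes. The Gpr174-/Y libraries also differed less from each other over the transcriptome, as given above, so this is not particular to the 10 genes. In the same WT libraries the summed mature fibre genes were highest in replicate 1 and lowest in replicate 3, while the macrophage identity genes were lowest in replicate 1 and highest in replicate 3.

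**Figure D2:**
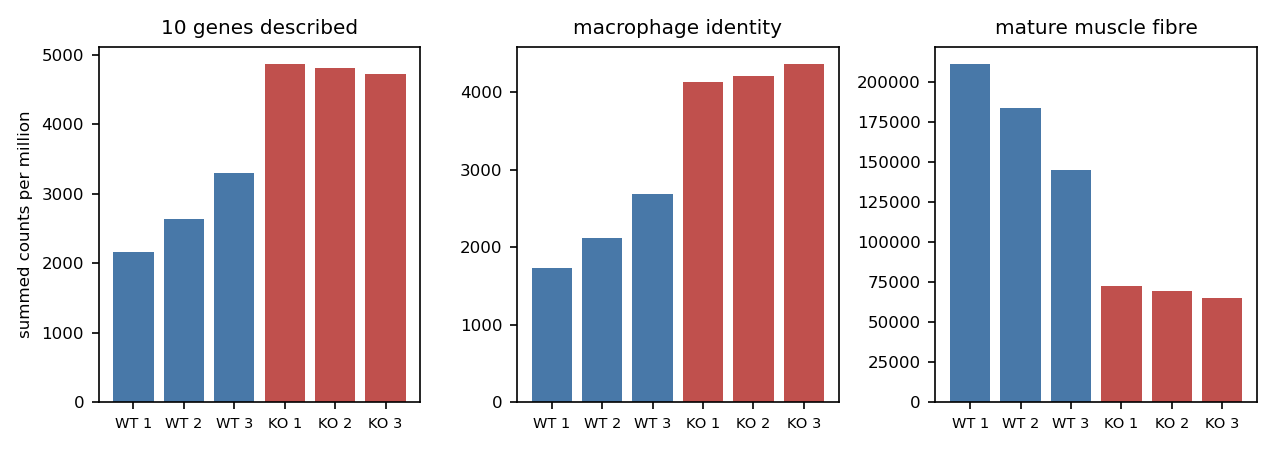
Summed CPM (y axis, linear and starting at 0) of the 10 genes, of 16 macrophage identity genes and of 20 mature muscle fibre genes in each library. The sum of the 10 genes was 2167, 2642 and 3293 CPM in WT replicates 1, 2 and 3 and between 4725 and 4868 CPM in Gpr174-/Y libraries, while the fibre sum was lower in each Gpr174-/Y library than in each WT library.

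Trem2, on chromosome 17 (48346401 to 48354147, plus strand, GRCm38), encodes the receptor. It reached 26.0, 37.8 and 49.7 CPM in WT replicates 1, 2 and 3 and 78.0, 79.7 and 83.0 CPM in Gpr174-/Y replicates 1, 2 and 3. The groups did not overlap, and the lowest Gpr174-/Y library was 1.57-fold above the highest WT library. The log2 fold change was 1.08 (SE 0.20, edgeR adjusted p = 0.00501). Tyrobp, on chromosome 7 (30413760 to 30417585, plus strand), encodes the adaptor that carries the TREM2 signal inward. It had 41.8, 52.9 and 72.8 CPM in WT and 114, 112 and 112 CPM in Gpr174-/Y libraries. All 3 Gpr174-/Y values lay within a narrow range above the WT values, with a log2 fold change of 1.01 (SE 0.18, edgeR adjusted p = 0.00408). The log2 ratio of Trem2 to Tyrobp averaged -0.57 ± 0.10 in WT muscles and -0.49 ± 0.06 in the muscles without GPR174 (SD, n = 3 each). The ratio overlapped between groups, with a difference of 0.08 (2-sided exact permutation test, p = 0.5).

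Sequences before the start sites are shown for Trem2, Gpnmb, Spp1 and Lgals3, the 4 genes that were higher relative to macrophage identity genes in each Gpr174-/Y library than in each WT library (values given with the ratios). RefSeq windows of 300 bases on GRCm38.p6, from 250 bases before to 50 bases after an annotated start, were given for 7 of the 10 genes. The stretches below run from 150 bases before to 15 bases after the start, 5′ to 3′ on the plus strand. Capitals mark GAGGAA, core letters of sites bound by the myeloid factor PU.1 and other ETS factors, and TGANTCA, where N is any base. TGANTCA is looser than the usual letters of AP-1 sites, which have C or G at N. Both were searched on both strands.
Trem2, chr17:48346251-48346415: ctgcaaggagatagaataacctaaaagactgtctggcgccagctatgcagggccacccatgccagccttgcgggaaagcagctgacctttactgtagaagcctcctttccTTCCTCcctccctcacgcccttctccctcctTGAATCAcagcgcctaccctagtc
Gpnmb, chr6:49036368-49036532: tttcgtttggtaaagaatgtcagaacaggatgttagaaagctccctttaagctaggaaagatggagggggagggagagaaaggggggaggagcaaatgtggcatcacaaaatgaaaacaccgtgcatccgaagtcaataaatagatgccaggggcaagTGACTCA
Spp1, chr5:104434961-104435125: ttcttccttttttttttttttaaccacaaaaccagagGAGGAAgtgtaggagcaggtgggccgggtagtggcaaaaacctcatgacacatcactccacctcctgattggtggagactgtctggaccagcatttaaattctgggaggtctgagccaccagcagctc
Lgals3, chr14:47373710-47373874: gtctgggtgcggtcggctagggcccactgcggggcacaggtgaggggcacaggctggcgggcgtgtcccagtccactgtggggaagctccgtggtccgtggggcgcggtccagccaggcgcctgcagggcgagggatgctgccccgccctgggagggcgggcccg

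In the full windows, GAGGAA was found in 6 of the 11 windows of the 7 genes and in 28.3% of all 32851 promoter windows. TGANTCA was found in 2 of the 11 windows, those of Trem2 and Gpnmb, and in 7.81% of all windows. The base at N was A in the Trem2 window and C in the Gpnmb window, so only Gpnmb had the usual AP-1 letters. In the Trem2 window the TGANTCA match lay 9 bases before the start, and in the Gpnmb window it began at base 9 after the start. TATAAA, the letters of the TATA box, occurred in 1 Spp1 and 1 Apoe window (13.6% of all windows), and CACGTG, the E-box letters recognized by MITF and TFEB, in 1 Gdf15 window (7.15%). GCGTGGGCG, the letters of EGR1 sites, and TGACNNNGC, part of the site of MAF factors, were in 0 of the 11 windows and in 0.612% and 12.4% of all windows. A match describes letters only and was not tested for binding.

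Gpnmb, on chromosome 6 (49036546 to 49070929, plus strand), encodes a glycoprotein of lysosomes and phagosomes that is turned on in macrophages filled with lipid. Its level was 126, 175 and 247 CPM in WT replicates 1, 2 and 3 and 556, 561 and 564 CPM in Gpr174-/Y replicates. The lowest Gpr174-/Y library was 2.25-fold above the highest WT library, and only 0.875% of all genes tested had a higher log2 fold change than its 1.62 (SE 0.22, edgeR adjusted p = 0.00184). Cd63, on chromosome 10 (128900989 to 128912822, plus strand), encodes a tetraspanin of late endosomes and exosomes that most cell types make. Its values were 181, 211 and 246 CPM in WT and 317, 312 and 311 CPM in Gpr174-/Y muscles. The groups did not overlap, but the difference was smaller than that of Gpnmb, with a log2 fold change of 0.56 (SE 0.11, edgeR adjusted p = 0.00589). The log2 ratio of Gpnmb to Cd63 was -0.26 ± 0.26 in WT and 0.84 ± 0.03 in Gpr174-/Y muscles (SD, n = 3 each). This ratio did not overlap between groups (2-sided exact permutation test, p = 0.1, which is the minimum for 3 against 3 libraries).

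Spp1, on chromosome 5 (104435118 to 104441050, plus strand), encodes osteopontin, a secreted ligand of integrins and CD44, and had the largest difference of the 10 genes. Its level was 38.4, 80.8 and 142 CPM in WT replicates 1, 2 and 3 and 506, 489 and 456 CPM in Gpr174-/Y replicates. WT libraries spread widely, yet the lowest Gpr174-/Y library was 3.21-fold above the highest WT library. The log2 fold change was 2.47 (SE 0.42, edgeR adjusted p = 0.00355), the 18th highest of 14395. Lgals3, on chromosome 14 (47367751 to 47386160, plus strand), encodes galectin-3, a sugar-binding protein that macrophages secrete in quantity. It was measured at 81.5, 126 and 189 CPM in WT and 379, 382 and 388 CPM in Gpr174-/Y libraries. The Gpr174-/Y libraries were nearly equal and at least 2.01-fold above the WT libraries, with a log2 fold change of 1.53 (SE 0.27, edgeR adjusted p = 0.00404). The log2 ratio of Spp1 to Lgals3 was -0.71 ± 0.34 in WT and 0.34 ± 0.09 in Gpr174-/Y muscles (SD, n = 3 each), without overlap (2-sided exact permutation test, p = 0.1). Spp1 is made by other cells besides macrophages, among them osteoclast-like giant cells, whose marker list is given with the other lists.

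Apoe, on chromosome 7 (19696109 to 19699188, minus strand), encodes apolipoprotein E, which takes up cholesterol leaving the cell and is a ligand of TREM2 and of LDL receptor family members. It was by far the most abundant of the 10 genes, with 1610, 1888 and 2267 CPM in WT replicates 1, 2 and 3 and 2772, 2733 and 2674 CPM in Gpr174-/Y replicates. The lowest Gpr174-/Y library exceeded the highest WT library by 1.18-fold, and the log2 fold change was 0.50 (SE 0.14, edgeR adjusted p = 0.0186). The adjusted p of Apoe rose above 0.05 when any of 4 libraries was left out, to 0.0614, 0.0653 and 0.0521 without Gpr174-/Y replicates 1, 2 and 3 and to 0.0710 without WT replicate 2. Fabp5, on chromosome 3 (10012548 to 10016607, plus strand), encodes a cytoplasmic fatty acid carrier of macrophages and several other cell types. It had 59.2, 66.5 and 72.7 CPM in WT and 133, 127 and 128 CPM in Gpr174-/Y muscles. The WT libraries were closest to each other for this gene, and its adjusted p was the lowest of the 10, with a log2 fold change of 0.97 (SE 0.08, edgeR adjusted p = 0.000634). Processed copies of Fabp5 and of Cd63 lie elsewhere in the genome, and how reads shared with them were assigned was not examined. The log2 ratio of Apoe to its receptor gene Trem2 was 5.70 ± 0.22 in WT and 5.08 ± 0.07 in Gpr174-/Y muscles (SD, n = 3 each), lower in all 3 Gpr174-/Y libraries (2-sided exact permutation test, p = 0.1).

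Gdf3, on chromosome 6 (122605403 to 122610087, minus strand), encodes a TGF-beta superfamily ligand of macrophages in regenerating muscle. It rested on few reads, with 29, 41 and 81 counts in WT and 201, 166 and 136 counts in Gpr174-/Y libraries. These corresponded to 1.80, 2.44 and 4.55 CPM in WT and 9.61, 7.82 and 6.33 CPM in Gpr174-/Y muscles. It was the only one of the 10 genes for which the Gpr174-/Y libraries differed from each other by more than 1.5-fold, and its log2 fold change was 1.42 (SE 0.32, edgeR adjusted p = 0.00919). Gdf15, on chromosome 8 (70629393 to 70632456, minus strand), encodes a stress-induced ligand that many injured tissues release. Its counts were 24, 32 and 41 in WT and 57, 56 and 51 in Gpr174-/Y libraries, or 1.49, 1.90 and 2.30 CPM and 2.72, 2.64 and 2.37 CPM. The groups were separated by a factor of only 1.03, and the log2 fold change of 0.43 (SE 0.18) did not pass the test (edgeR adjusted p = 0.0756). Without WT replicate 3 the log2 fold change was 0.60 and the edgeR adjusted p 0.0188. The other fits without 1 library did not call Gdf15. Their edgeR adjusted p was 0.206 and 0.173 without WT replicates 1 and 2, and 0.175, 0.186 and 0.0931 without Gpr174-/Y replicates 1, 2 and 3. The log2 ratio of Gdf15 to Gdf3 was -0.52 ± 0.38 in WT and -1.56 ± 0.20 in Gpr174-/Y muscles (SD, n = 3 each), lower in each Gpr174-/Y library (2-sided exact permutation test, p = 0.1). Over the 5 ratios between pairs of these genes, 4 did not overlap between groups, each with an adjusted p of 0.125, and the design cannot bring such a p under 0.05. How often ratios between other genes would not overlap was not determined.

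**Figure D3:**
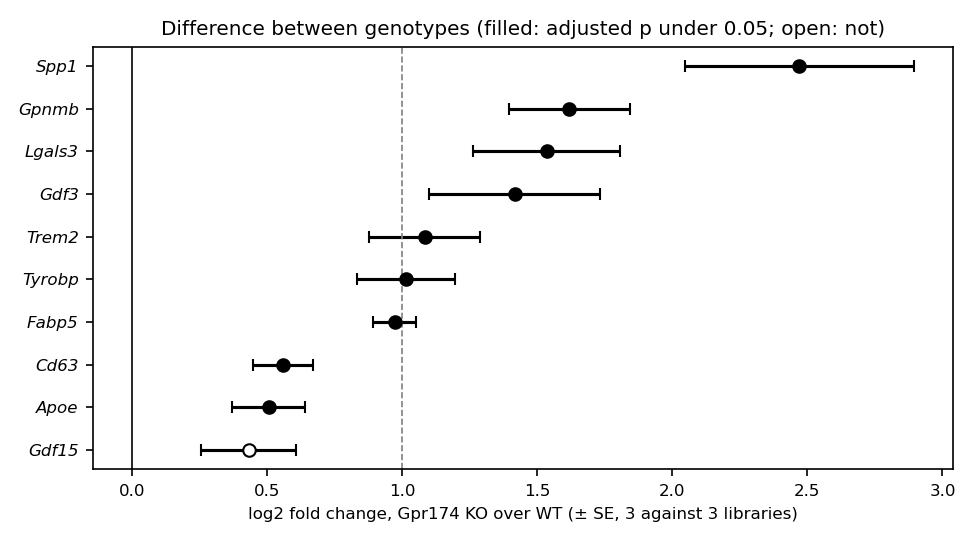
Log2 fold change of Gpr174-/Y over WT (x axis) for the 10 genes, ordered by size, with the dashed line at 1. Bars are ± SE, derived from the F statistic of the edgeR fit of 3 against 3 libraries. The values run from 0.43 for Gdf15, the open symbol, to 2.47 for Spp1.

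Per length, in TPM (abundance scaled for transcript length and depth), Apoe ranked first, Cd63 second and Trem2 eighth of the 10 genes in all 6 libraries, with Gdf3 and Gdf15 in the last places. The mean TPM of Apoe was 2875 ± 640 in WT (SD, n = 3), against 428 ± 87.2 for Cd63, 183 ± 60.7 for Tyrobp and 62.1 ± 22.3 for Trem2. The middle of the order differed between genotypes. Spp1 was 7th, 6th and 5th in WT replicates 1, 2 and 3, at 45.6, 99.8 and 186 TPM, and 3rd in each Gpr174-/Y library, at 799, 794 and 770 TPM. Spp1 thus lay just below Cd63 in Gpr174-/Y muscles, where Cd63 had 807, 814 and 844 TPM, and the ranges of these neighbours did not meet. In WT, the ranges of Tyrobp (130 to 249 TPM), Lgals3 (99.4 to 254 TPM), Spp1, Fabp5 (107 to 145 TPM) and Gpnmb (54.7 to 119 TPM) overlapped with those of their neighbours in the order. In Gpr174-/Y muscles, Lgals3 (614 to 676 TPM) lay above Tyrobp (472 to 494 TPM), which lay above Gpnmb (322 to 349 TPM), while Gpnmb and Fabp5 (315 to 329 TPM) overlapped. The difference between the 2 growth factors also turned: Gdf15 lay above Gdf3 in WT replicates 1 and 2 (1.83 and 2.46 against 1.40 and 2.08 TPM), and Gdf3 lay above Gdf15 in the other 4 libraries.

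To describe the 10 genes relative to other macrophage genes, the log2 level of each was taken minus the mean log2 level of the 16 macrophage identity genes of the same library, a value that does not depend on library scaling. Of these 16 genes, 14 rose and none fell (0, also at an unadjusted p under 0.05 and by DESeq2), with a median log2 fold change of 0.85. The list's most abundant gene, Lyz2, which encodes lysozyme, had a log2 fold change of 1.00 (SE 0.12, edgeR adjusted p = 0.00136), and the highest called was Itgam, encoding an integrin subunit of myeloid cells, at 1.60 (SE 0.22, edgeR adjusted p = 0.0018). Relative to the list, Spp1 was higher in Gpr174-/Y muscles by 1.70, Gpnmb by 0.71, Lgals3 by 0.65 and Trem2 by 0.17, without overlap between the groups. Apoe was lower by 0.45, Gdf15 by 0.53 and Cd63 by 0.40, also without overlap. Tyrobp, Fabp5 and Gdf3 overlapped between groups, with differences of 0.09, 0.01 and 0.52. The 7 ratios that did not overlap each had p = 0.1 (2-sided exact permutation test, adjusted p = 0.143 over the 10 genes), the smallest p possible with 3 samples against 3. How many of all genes would not overlap in such a ratio was not determined. In CPM, 33.1% of all genes tested had each Gpr174-/Y library above each WT library. The direction and the overlap of all 10 ratios were the same with Adgre1, Csf1r and Cd68 alone as the reference.

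The 4 genes above the reference differed in the size of their own spread. The log2 ratio of Spp1 was -0.37, 0.27 and 0.67 in WT replicates 1, 2 and 3 and 2.02, 1.92 and 1.72 in Gpr174-/Y replicates. For Gpnmb it was 1.34, 1.38 and 1.46 in WT and 2.16, 2.12 and 2.03 in the Gpr174-/Y libraries. For Trem2 it was -0.93, -0.82 and -0.85 in WT and -0.68, -0.69 and -0.74 in the Gpr174-/Y libraries. The WT spread of Gpnmb and Trem2 was thus small on this scale (SD 0.06 for both), unlike their spread in CPM, whereas that of Spp1 stayed large (SD 0.53). Apoe went from 5.01, 4.82 and 4.66 in WT to 4.47, 4.40 and 4.27 in the Gpr174-/Y libraries, so that its WT library of lowest CPM had its highest ratio.

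**Figure D4:**
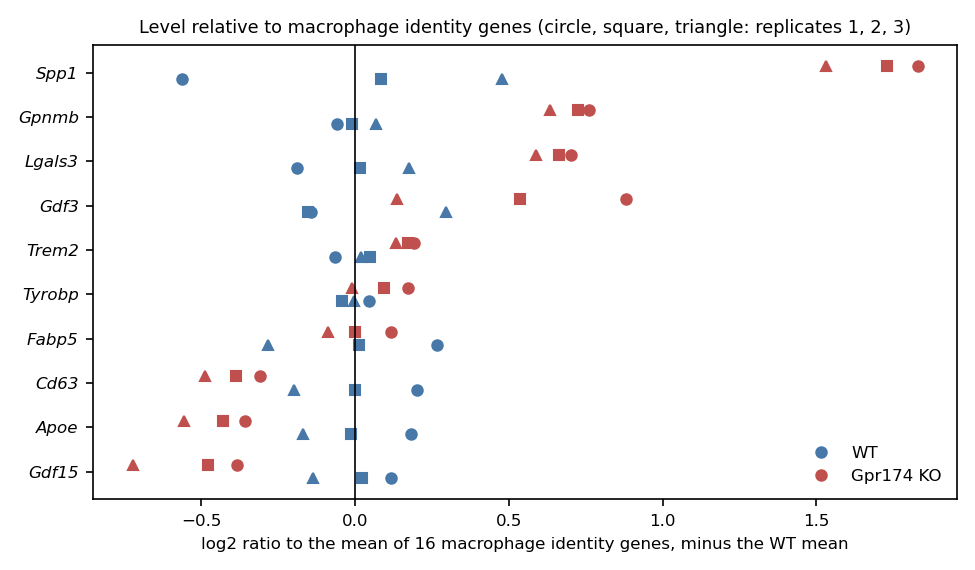
Log2 ratio of each gene to the mean of 16 macrophage identity genes in each library, shown relative to the WT mean of that gene (x axis, log2 units), with 3 WT and 3 Gpr174-/Y points per gene. Spp1, Gpnmb, Lgals3 and Trem2 lie to the right of their WT points in all 3 Gpr174-/Y libraries, Cd63, Apoe and Gdf15 lie to the left, and Gdf3, Tyrobp and Fabp5 overlap.

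The deposited table splits each gene over RefSeq transcripts, and the split is an estimate where transcripts share sequence. Spp1, Apoe, Cd63, Fabp5, Tyrobp and Gpnmb each had 1 transcript that took 92.5% to 100% of the gene's estimated count in every library. Trem2 had 2 transcripts, and the minor one took 18.0%, 16.5% and 22.3% in WT and 22.6%, 22.6% and 22.8% in Gpr174-/Y libraries, so the groups did not overlap, with WT replicate 3 close to the Gpr174-/Y libraries. For Lgals3 the minor transcript took 16.1% to 27.8% in WT and 16.01% to 34.5% in Gpr174-/Y libraries, an overlap over nearly the whole range. The second Gdf3 transcript took 0%, 6.33% and 20.1% in WT and 21.5%, 25.7% and 25.4% in Gpr174-/Y libraries, at few counts. For Gdf15, all reads were given to 1 transcript in WT replicate 1 and in the 3 Gpr174-/Y libraries and to another in WT replicates 2 and 3, so only the sum over transcripts was compared.

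The genes around the 10 were read from lists of the pathway, 151 tested genes in all, of which 84 rose and 24 fell, against 27.0% and 27.6% of all genes. These lists were chosen with earlier results of these data known, so the counts are a description and no list was tested. Genes named below for their size or abundance followed a rule on each list, and Syk, Ctsb, Plin2, Lipa, Atp6v0d2, Srebf2, Soat1, Itgav, Lrp1 and Mertk were chosen after their values were seen. In TREM and DAP12 signalling, 16 of 21 tested genes rose and 1 fell, with a median log2 fold change of 0.79. Syk, the kinase recruited by phosphorylated TYROBP, went from 41.9, 45.2 and 53.8 CPM in WT to 74.9, 78.5 and 78.1 CPM in Gpr174-/Y muscles (log2 fold change 0.72, SE 0.09, edgeR adjusted p = 0.0015). Its level was higher in every Gpr174-/Y library. The largest called increase was that of Clec5a, a receptor that also pairs with TYROBP, at 1.12 (SE 0.38, edgeR adjusted p = 0.0433). That call was lost in 4 of the 6 fits without 1 library, with adjusted p of 0.123, 0.0921 and 0.0904 without Gpr174-/Y replicates 1, 2 and 3 and 0.125 without WT replicate 2. Ms4a7, the most abundant gene of the list, a macrophage membrane protein, had a log2 fold change of 0.83 (SE 0.26, edgeR adjusted p = 0.0310), also lost without any 1 of the same libraries (0.0751, 0.0747, 0.0885 and 0.0902). Siglech, a TYROBP partner of plasmacytoid dendritic cells, was the gene that fell, at -0.67 (SE 0.18, edgeR adjusted p = 0.0180), a call lost without Gpr174-/Y replicate 1 (0.0579) or 2 (0.0723) or WT replicate 1 (0.0556), by DESeq2 (0.0826) and with total-count scaling (0.1).

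Among 37 further genes of the lipid-associated macrophage programme, 30 rose and 2 fell, with a median log2 fold change of 0.69. Mmp12, encoding macrophage elastase, had the largest increase, from 4.85, 9.17 and 17.9 CPM in WT to 51.9, 68.4 and 92.4 CPM in Gpr174-/Y muscles (log2 fold change 2.72, SE 0.42, edgeR adjusted p = 0.00259). The protease gene Ctsb rose (0.90, SE 0.13, edgeR adjusted p = 0.00199), as did Lipa, the lysosomal lipase that frees cholesterol and fatty acids (0.75, SE 0.12, edgeR adjusted p = 0.00299). Plin2, which coats lipid droplets, differed by 0.64 (SE 0.11, edgeR adjusted p = 0.00355). Atp6v0d2, a proton pump subunit of macrophages and osteoclasts, had 15.99, 15.3 and 13.4 CPM in WT and 33.5, 33.6 and 36.7 CPM in Gpr174-/Y muscles. Unlike the 10 genes, it was not lowest in WT replicate 1 (log2 fold change 1.22, SE 0.08, edgeR adjusted p = 0.000449). The list's most abundant gene, Lgals1, which encodes galectin-1, rose by 0.47 (SE 0.08, edgeR adjusted p = 0.00408). Fabp4, the fatty acid carrier of fat cells, capillary endothelium and macrophages, fell by 0.82 on the log2 scale (SE 0.06, edgeR adjusted p = 0.000477).

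Lipid sensing and cholesterol export, a list of regulators and enzymes, had 10 of 25 tested genes higher, 3 lower and a median log2 fold change of 0.14. Tfec, a transcription factor of the MITF and TFEB family found in macrophages, rose most, by 1.33 (SE 0.22, edgeR adjusted p = 0.00315). Soat1, which esterifies cholesterol for storage, rose by 1.13 (SE 0.14, edgeR adjusted p = 0.00138), and Srebf2, the regulator of cholesterol synthesis genes, by 0.85 (SE 0.07, edgeR adjusted p = 0.000675). Ppara, a fatty acid sensor abundant in muscle, fell by 1.47 on the log2 scale (SE 0.09, edgeR adjusted p = 0.000409). The most abundant gene, Scd1, a fatty acid desaturase, did not pass the test at 0.38 (SE 0.23, edgeR adjusted p = 0.208). It passed without Gpr174-/Y replicate 1 (0.59, edgeR adjusted p = 0.0300) and in no other fit. Without Gpr174-/Y replicate 3 its log2 fold change was 0.08 (edgeR adjusted p = 0.687).

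The list of receptors of the secreted proteins also holds genes, such as Cd74 and Lgals3bp, that are not their established receptors. Of its 22 tested genes, 10 rose and 5 fell, with a median of 0.26. Cd44, a receptor of osteopontin and hyaluronan, rose most, from 78.0, 97.4 and 124 CPM in WT to 211, 219 and 220 CPM in Gpr174-/Y muscles (log2 fold change 1.12, SE 0.16, edgeR adjusted p = 0.00187). Itgav, an integrin subunit that binds osteopontin, rose by 0.44 (SE 0.10, edgeR adjusted p = 0.00949), and Lrp1, a receptor of apolipoprotein E, by 0.79 (SE 0.11, edgeR adjusted p = 0.00175). Vldlr, another receptor of apolipoprotein E and prominent in muscle, fell by 1.49 on the log2 scale (SE 0.29, edgeR adjusted p = 0.00588). Cd74, the most abundant gene of the list, had a log2 fold change of -0.13 (SE 0.08, edgeR adjusted p = 0.231), a sign that turned under total-count scaling, total counts without fibre genes and FPKM.

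In clearance of apoptotic cells, 14 of 24 tested genes rose and 3 fell, with a median of 0.41. Msr1, scavenger receptor A, rose from 6.66, 11.1 and 15.6 CPM in WT to 34.1, 35.3 and 34.9 CPM in Gpr174-/Y muscles (log2 fold change 1.64, SE 0.25, edgeR adjusted p = 0.00234). Mertk, a receptor for dying cells, rose by 0.63 (SE 0.09, edgeR adjusted p = 0.00227). C1qb, a complement component made by macrophages and the most abundant gene of the list, rose by 0.70 (SE 0.19, edgeR adjusted p = 0.0172), a call lost without Gpr174-/Y replicate 2 (0.0510) or 3 (0.0595) or WT replicate 2 (0.0622). Scarb1, the HDL receptor, fell by 0.80 on the log2 scale (SE 0.10, edgeR adjusted p = 0.00142).

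Relatives of the 10 genes moved in both directions, as did all genes tested, of which 27.0% were called higher and 27.6% lower. In the galectin, FABP and apolipoprotein families, 2 of 10 tested genes rose and 3 fell, with a median of -0.05. While Fabp5 rose, Fabp3, the fatty acid carrier of muscle fibres, had the largest decrease of the list, from 311, 282 and 261 CPM in WT to 136, 128 and 116 CPM in Gpr174-/Y muscles (log2 fold change -1.17, SE 0.09, edgeR adjusted p = 0.000566). Apoc2, a small apolipoprotein encoded near Apoe, rose most, by 1.01 (SE 0.33, edgeR adjusted p = 0.0362), but its call was lost without any of 5 libraries (adjusted p = 0.0530, 0.0821 and 0.115 without Gpr174-/Y replicates 1, 2 and 3, 0.0514 without WT replicate 1 and 0.108 without WT replicate 2). Among GDF growth factors and tetraspanins, 6 of 18 tested genes rose and 8 fell, with a median of -0.01. Cd53, a tetraspanin of white blood cells, rose by 0.91 (SE 0.17, edgeR adjusted p = 0.00438), and Tspan8 fell by 2.24 on the log2 scale (SE 0.38, edgeR adjusted p = 0.00359). Cd81, a tetraspanin found on most cells and the most abundant of the list, rose by 0.23 (SE 0.07, edgeR adjusted p = 0.0231), a call lost without Gpr174-/Y replicate 1 (0.0822) or 2 (0.0925) or WT replicate 2 (0.0829).

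**Figure D5:**
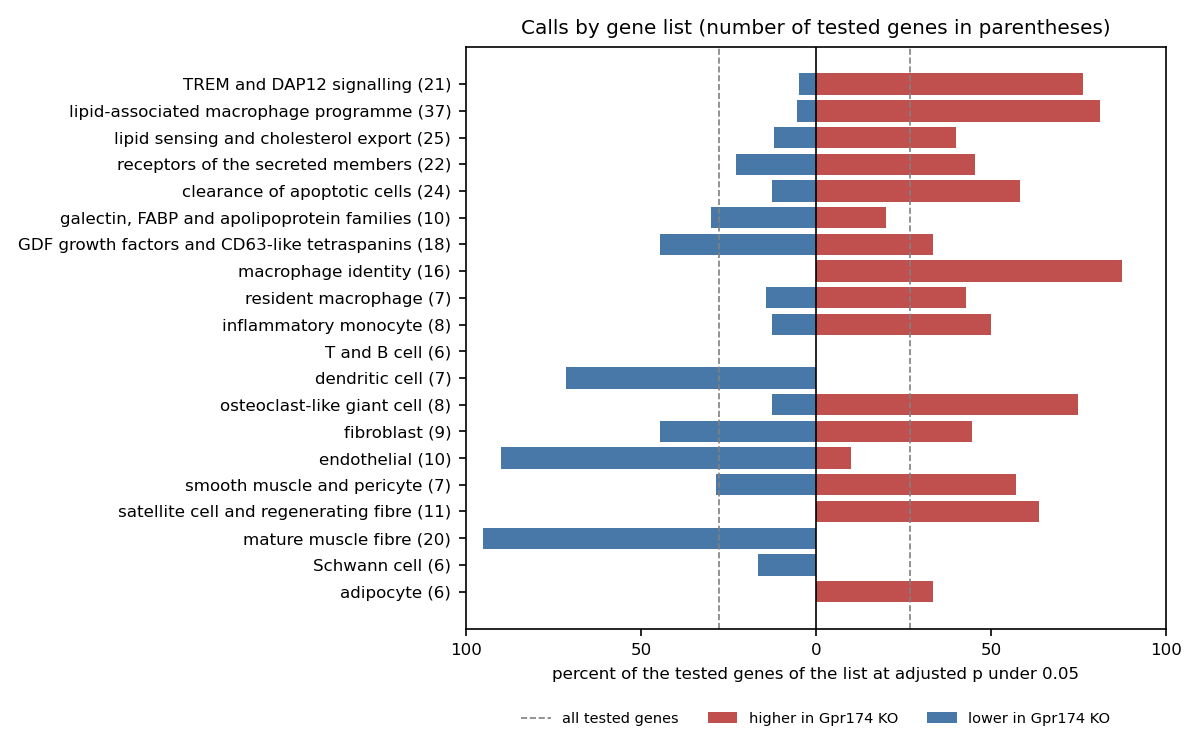
Percent of the tested genes of each list that were called higher (right) or lower (left) in Gpr174-/Y muscles at an adjusted p under 0.05 (x axis), for lists with at least 6 tested genes, with dashed lines at 27.0% and 27.6% for all tested genes. The lists of the lipid-associated programme, TREM and DAP12 signalling and macrophage identity extend to the right, and those of mature muscle fibre and endothelial cells to the left.

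The cell type lists place these values among the other cells of the muscle. Their counts are to be read beside all genes tested, of which 27.0% were called higher and 27.6% lower. Small lists near these shares do not set a cell type apart. Of the osteoclast-like giant cell list, 6 of 8 tested genes rose and 1 fell, and the list summed to 98.9 to 142 CPM in WT and 246 to 258 CPM in Gpr174-/Y muscles. Of the inflammatory monocyte list, 4 of 8 rose and 1 fell (121 to 170 CPM in WT against 222 to 233 CPM), and of the resident macrophage list 3 of 7 rose and 1 fell (323 to 377 CPM against 393 to 413 CPM). The neutrophil list had only 3 testable genes, 2 higher and 1 lower, with Ly6g, Ngp and Camp at no more than 3 counts in any library. Of T and B cell genes, 0 of 6 tested passed in either direction (1 higher at an unadjusted p under 0.05, and 0 by DESeq2 and limma voom). Dendritic cell genes fell in 5 of 7 cases, with 31.7 to 33.0 CPM in WT against 20.1 to 24.1 CPM. Endothelial genes fell in 9 of 10 cases and rose in 1 (1068 to 1273 CPM against 683 to 771 CPM). Satellite cell and regenerating fibre genes rose in 7 of 11 cases and fell in none (0, also at an unadjusted p under 0.05 and by DESeq2), while their sums overlapped (6637 to 8614 CPM against 7685 to 9547 CPM). Fibroblast genes were divided, 4 of 9 higher and 4 lower, while their sum was higher in each Gpr174-/Y library (15442 to 21963 CPM against 27677 to 31179 CPM). Smooth muscle and pericyte genes rose in 4 of 7 cases and fell in 2 (1014 to 1030 CPM against 1185 to 1343 CPM). Of the remaining lists, 1 of 6 Schwann cell genes fell and 2 of 6 adipocyte genes rose. The part of these cell types in the levels of the 10 genes was not tested.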

How the data were processed

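RNA of ischemic gastrocnemius (3 WT and 3 Gpr174-/Y samples, 7 days after HLI) was prepared with a TruSeq RNA kit and sequenced on BGISEQ-500. The authors deposited, per RefSeq transcript, expected counts (estimated reads, not normalized), FPKM and TPM, which also scale for length and depth. The submitters' processing notes name HISAT2 2.0.4, Bowtie2 2.2.5, RSEM 1.2.12 and GRCm39 without roles. Strand use is not given in the sources used here. The table has no coordinates, and those printed are from GENCODE M21 and RefSeq on GRCm38.

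Expected counts of 58843 transcripts were summed per Entrez gene and rounded (18089 genes, 99.7% with a symbol). Groups came from sample titles. Genes kept by edgeR's filter on low counts (14395) were compared with edgeR 4.0.16 (TMM, robust quasi-likelihood F-test, Benjamini-Hochberg adjustment) in R 4.3.3. CPM are TMM-scaled, log2 CPM use a prior count of 2, and log2 fold changes are Gpr174-/Y minus WT. Each SE of an edgeR log2 fold change is its absolute value divided by the square root of the F statistic. edgeR's common dispersion came to 0.00967. Ratios were compared by exact permutation tests (scipy 1.17.1). The fit was also run on simulated data with independent libraries, which cannot show whether the p-values hold for these samples.

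Members and gene lists were chosen with earlier results of these data known. Named were the 10 members, Gpr174 and, per list, the most abundant gene and the highest and lowest called log2 fold change at a mean of at least 1 CPM; for cell type lists other than macrophage identity only counts are given. Alternatives were DESeq2 1.42.0, other scalings, limma 3.58.1 (voom, and log2(FPKM + 1) or log2(FPKM + 0.1) where 3 libraries reached an FPKM of 1), other filters, a replicate block, left-out libraries, replicates 1 and 3 only, and a fibre score as a covariate.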

Additional observations from a re-analysis of the deposited data

How the results depend on the processing

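The 9 of 10 genes called higher became 10 with total-count scaling, total counts without fibre genes, both FPKM fits and without WT replicate 3, stayed at 9 with DESeq2, limma voom, upper-quartile scaling and both other filters, and ranged from 8 to 10 when 1 library was left out. All 10 had a positive log2 fold change in these fits. The number past both thresholds ranged from 4 to 7 without 1 library, and their median log2 fold change from 0.89 to 1.30 (1.36 with log2(FPKM + 0.1)). With replicates 1 and 3 only, 0 of the 10 genes, 0 past both thresholds and 0 and 0 of the pathway genes were called higher or lower. The same held for 0 and 0 of all genes at adjusted p and 0 and 0 past both thresholds. The reason for the loss of these calls was not tested. Deviations from the group means were nearly uncorrelated between libraries of the same replicate number (0.016, -0.028 and -0.008). This shows no sign of pairing by replicate number but cannot establish that the samples were unpaired. With the replicate block 9 of the 10 genes were called, with 3305 genes higher and 3507 lower in all. Among the named genes, Clec5a (adjusted p = 0.0841), Siglech (0.0511) and Cd81 (0.0704) were no longer called with that block. The number of genes above the macrophage identity reference without overlap was 4 to 6 when 1 library was left out.

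With the fibre score added to the model, 0 of the 10 genes were called, 0 past both thresholds, and their median was -0.74. The log2 fold changes became -0.91 for Trem2, -0.74 for Tyrobp, -0.58 for Apoe, -1.08 for Lgals3, -1.29 for Spp1, -0.73 for Gdf15, -0.86 for Gdf3, -0.52 for Gpnmb and -0.42 for Cd63, and Fabp5 remained positive at 0.35. Among other named genes the sign also turned for Clec5a (-2.29), Ms4a7 (-1.69), Mmp12 (-1.92), Scd1 (-0.28), Tfec (-0.92), Cd44 (-0.39), Vldlr (0.14), Msr1 (-0.75), Scarb1 (0.024), C1qb (-1.11), Apoc2 (-2.34), Cd53 (-0.77), Tspan8 (1.41), Itgam (-0.63), Syk (-0.15), Plin2 (-0.18), Ctsb (-0.16), Lipa (-0.31), Soat1 (-0.29), Itgav (-0.38), Lrp1 (-0.13) and Mertk (-0.25). In that fit 153 genes were called higher and 395 lower, 99 and 328 past both thresholds. Of the pathway genes, 4 were called higher and 16 lower. Among the other named genes, Ms4a7 and C1qb were called lower (edgeR adjusted p = 0.042 and 0.0242). Atp6v0d2 was still called higher (1.70, edgeR adjusted p = 0.0354). The fibre sums did not overlap between genotypes, so the part of fibre content cannot be told apart from genotype.

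Total-count scaling called 7303 genes higher and 2010 lower (1144 and 354 past both thresholds) and 13 pathway genes lower. The fits on log2(FPKM + 0.1) and log2(FPKM + 1) called 6798 and 6817 genes higher and 1816 and 1823 lower, 884 higher past both thresholds with the first, 229 and 162 lower past both, and 11 pathway genes lower in each. Cd74 turned positive under 4 scalings, at 0.15 with total counts, 0.15 and 0.15 with the FPKM fits and 0.0056 with total counts without fibre genes. The causes of these changes in scaling were not tested further. Leaving out 1 library gave 389 to 892 genes higher and 535 to 934 lower past both thresholds, the first being 892 without WT replicate 3, and 15 to 27 pathway genes lower, 15 without Gpr174-/Y replicate 2. Of 754 values of single named genes under all alternatives, 634 kept their direction and side of the threshold, 79 lost a call, 6 gained one and 35 changed sign. Genes near the limit of 3 counts, such as Gpr174, and the low counts of Gdf15 limit the precision of their folds.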
